A study of Mus musculus with 9 samples.

Results

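The genes described here encode 8 enzymes of the late part of cholesterol synthesis, from squalene to cholesterol. They were chosen by name: Sqle, Lss, Cyp51, Tm7sf2, Msmo1, Hsd17b7, Sc5d and Dhcr7. Each was taken as the row of the embryo count table whose Ensembl identifier carries that symbol. The rule used no measured value, but the set was chosen with earlier results of these data known. Each symbol matched 1 row, so the set is 8 of the 56748 genes in the table. All 8 had enough reads to be tested, among 17171 tested genes. The identifiers were ENSMUSG00000022351 for Sqle on chromosome 15, ENSMUSG00000033105 for Lss on chromosome 10, ENSMUSG00000001467 for Cyp51 on chromosome 5 and ENSMUSG00000024799 for Tm7sf2 on chromosome 19. Msmo1 was ENSMUSG00000031604 on chromosome 8, Hsd17b7 was ENSMUSG00000026675 on chromosome 1, Sc5d was ENSMUSG00000032018 on chromosome 9 and Dhcr7 was ENSMUSG00000058454 on chromosome 7.

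Total RNA depleted of ribosomal RNA was sequenced from whole brains of wildtype mouse embryos at embryonic day 14, in 3 libraries for each of 3 groups. The valproic acid group was exposed to an anticonvulsant that also inhibits histone deacetylases, the poly(I:C) group to synthetic double-stranded RNA, used as a stand-in for a virus, and the control group to saline. Both exposures are used in rodents to model autism spectrum disorder. Doses, exposure days, litters, sexes and batches are not in the labels. Neither is the origin of the replicates from separate embryos, so each p-value covers only how these libraries vary, which may be technical in part. In the poly(I:C) and control groups, Y-linked counts were present in replicates 1 and 2 and absent in replicate 3. Replicate 3 was thus no technical copy of the others there. Whether the remaining replicates came from separate embryos is not known.

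Cholesterol is built in the endoplasmic reticulum in a long chain of reactions. The early, mevalonate branch ends in the linear hydrocarbon squalene, and the later enzymes oxidise it, fold it into the first sterol, lanosterol, and then trim and rearrange lanosterol until cholesterol is left. Many of these genes are switched on together by the transcription factor SREBP2, which is released from the endoplasmic reticulum when sterols there run low. The fetal brain makes most of its own cholesterol once the blood-brain barrier forms, and inherited loss of Dhcr7 activity in people causes Smith-Lemli-Opitz syndrome, a disorder of brain and body development.

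Libraries held 15399974 to 19883131 counts, and each of the 8 genes had between 498 and 3300 counts in every library. Levels below are CPM, which is read counts scaled to library size with trimmed mean of M-values (TMM) factors. Expression of the X-inactivation transcript Xist and of 4 Y-linked genes differed between the groups. All 3 valproic acid libraries had Xist at 979.3 to 1054 CPM and no Y-linked counts, as did poly(I:C) replicate 3 with 1047 CPM of Xist. The other poly(I:C) libraries and control replicates 1 and 2 had Xist at 0.113 to 0.236 CPM and Y-linked genes at 196.1 to 201.1 CPM, and control replicate 3 had 0.0497 CPM of Xist and no Y-linked counts. The valproic acid group thus held no library with Y-linked expression, and exposure and embryo sex cannot be told apart in its comparisons.

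Valproic acid brains had higher transcript levels of 5 of the 8 enzymes than control brains: Sqle, Lss, Cyp51, Msmo1 and Dhcr7, by 1.13-fold to 1.28-fold. Tm7sf2, Hsd17b7 and Sc5d did not pass the test, and no enzyme was lower. Calls are those of edgeR's two-sided quasi-likelihood F-test, fitted to all 9 libraries, with p-values adjusted by Benjamini-Hochberg across the tested genes and a threshold of 0.05. Of all tested genes, 3.57% were called higher in this comparison. The median log2 fold change was 0.21 over the 8 enzymes and -0.0033 over all tested genes. In RNA from whole brain, a larger share of cells with high levels and more RNA per cell cannot be told apart.

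Squalene epoxidase, encoded by Sqle, adds the first oxygen to squalene and is a rate-limiting step of this branch. Sqle stood at 176.9, 186.6 and 189.8 CPM in the valproic acid libraries, at 160.9, 158.4 and 158.4 CPM in the poly(I:C) libraries and at 153.8, 150.4 and 164.0 CPM in the control libraries. Every valproic acid library was above every other library, while the poly(I:C) values lay within the control range. The means were 184.5 ± 6.71 CPM with valproic acid and 156.1 ± 7.07 CPM in control (SD, n = 3 each), a fold change of 1.18 (95% interval 1.11 to 1.26, log2 0.24, SE 0.0415, edgeR adjusted p = 0.00455).

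Lanosterol synthase, encoded by Lss, folds oxidosqualene into the ring system of lanosterol. Lss was at 90.27, 92.55 and 93.31 CPM in the valproic acid libraries, at 69.82, 67.35 and 70.11 CPM in the poly(I:C) libraries and at 69.75, 73.02 and 72.46 CPM in the control libraries. The valproic acid values stood clear of both other groups, which overlapped each other. Of the 8 enzymes Lss had the largest fold change, 1.28 (95% interval 1.20 to 1.37, log2 0.36, SE 0.0441, edgeR adjusted p = 0.000484), from means of 92.1 ± 1.58 CPM with valproic acid and 71.7 ± 1.75 CPM in control (SD, n = 3 each). An antisense gene that overlaps Lss, 4930483K19Rik, had 42 counts over all 9 libraries, against 12212 for Lss.

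Cyp51, a cytochrome P450, removes a methyl group from lanosterol. It stood at 161.2, 182.4 and 170.3 CPM in the valproic acid libraries, at 171.5, 166.8 and 168.0 CPM in the poly(I:C) libraries and at 152.2, 143.8 and 158.9 CPM in the control libraries. Here both exposed groups lay above all control libraries and overlapped each other. Cyp51 rose in valproic acid brains to 171.3 ± 10.7 CPM, against 151.7 ± 7.56 CPM in control brains (SD, n = 3 each), a fold change of 1.13 (95% interval 1.05 to 1.21, log2 0.18, SE 0.0483, edgeR adjusted p = 0.0432). The call depended on single libraries. Leaving out control replicate 1 or 2 gave an adjusted p of 0.104 or 0.134, and leaving out replicate 2 or 3 of the valproic acid group one of 0.145 or 0.0898, none of which passed.

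Exons of Cyp51 overlap those of Akap9, a kinase anchoring protein gene on the opposite strand, and whether counting used strand is not given in the sources used here. Akap9 was at 310.8 ± 31.7 CPM in valproic acid brains and 283.7 ± 5.21 CPM in control brains (SD, n = 3 each), a fold change of 1.10 that was not called (edgeR adjusted p = 0.188). Whether reads of the 2 genes in the shared stretch were kept apart is therefore not known.

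Tm7sf2 encodes a sterol reductase that acts after Cyp51, a reaction also carried out by the lamin B receptor, Lbr. Tm7sf2 was at 32.66, 32.48 and 32.54 CPM in the valproic acid libraries, at 32.45, 33.45 and 33.64 CPM in the poly(I:C) libraries and at 34.61, 34.60 and 31.51 CPM in the control libraries, so the 3 groups overlapped. The fold change between valproic acid and control was 0.971 (95% interval 0.887 to 1.06, edgeR adjusted p = 0.73), and the interval holds neither the fold of Lss nor that of Dhcr7. Lbr averaged 44.0 ± 2.91 CPM with valproic acid and 41.3 ± 5.56 CPM in control (SD, n = 3 each, fold change 1.07, edgeR adjusted p = 0.581). Tm7sf2 shares exon sequence with Vps51, a vesicle tethering gene on the same strand, which was not called either (fold change 1.07, edgeR adjusted p = 0.382).

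The paired methyl groups next to the sterol's hydroxyl group are removed by a complex of Msmo1, Nsdhl and Hsd17b7. Msmo1, the oxidase that starts the reaction, was at 72.84, 75.73 and 70.25 CPM in the valproic acid libraries, at 55.20, 52.98 and 61.46 CPM in the poly(I:C) libraries and at 59.43, 56.34 and 66.00 CPM in the control libraries. All valproic acid libraries were above the rest, and replicate 3, which had no Y-linked counts, was the highest library in both the poly(I:C) and the control group. Msmo1 rose to 72.9 ± 2.74 CPM in valproic acid brains, against 60.6 ± 4.93 CPM in control brains (SD, n = 3 each), a fold change of 1.20 (95% interval 1.09 to 1.33, log2 0.27, SE 0.0669, edgeR adjusted p = 0.0298). The call was lost without control replicate 1 (adjusted p = 0.1) or 2 (0.103) and without valproic acid replicate 1 (0.0597) or 2 (0.0855).

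Hsd17b7, the reductase that ends the same reaction, stood at 33.30, 35.27 and 35.35 CPM in the valproic acid libraries, at 32.55, 31.59 and 34.58 CPM in the poly(I:C) libraries and at 36.67, 32.79 and 40.46 CPM in the control libraries. The groups overlapped, and replicate 3 was again the highest library in the poly(I:C) and control groups. Its fold change between valproic acid and control was 0.944 (95% interval 0.845 to 1.06, edgeR adjusted p = 0.566). Nsdhl, the X-linked middle member of the complex, rose in valproic acid brains to 53.6 ± 1.77 CPM, against 42.6 ± 4.35 CPM in control brains (SD, n = 3 each), 1.26-fold (edgeR adjusted p = 0.0126). Within the complex Msmo1 and Nsdhl were thus called and Hsd17b7 was not.

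Sc5d, a desaturase that places a double bond in the sterol ring, was at 53.01, 56.00 and 57.44 CPM in the valproic acid libraries, at 53.35, 48.70 and 47.94 CPM in the poly(I:C) libraries and at 54.48, 46.82 and 54.08 CPM in the control libraries. Valproic acid replicate 1 lay below 2 of the control libraries. The fold change was 1.07 (95% interval 0.971 to 1.18, edgeR adjusted p = 0.414), an interval that includes both no change and the fold of Cyp51.

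Dhcr7 encodes the reductase that makes cholesterol from 7-dehydrocholesterol. It was at 74.30, 68.10 and 75.54 CPM in the valproic acid libraries, at 61.59, 61.92 and 59.76 CPM in the poly(I:C) libraries and at 58.01, 60.34 and 55.91 CPM in the control libraries. Every valproic acid library was above every other one. Here replicate 3 was the lowest library in both the poly(I:C) and the control group, the reverse of Msmo1 and Hsd17b7. Dhcr7 rose to 72.7 ± 3.98 CPM in valproic acid brains, against 58.1 ± 2.22 CPM in control brains (SD, n = 3 each), a fold change of 1.25 (95% interval 1.16 to 1.35, log2 0.32, SE 0.0529, edgeR adjusted p = 0.00327).

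**Figure D1:**
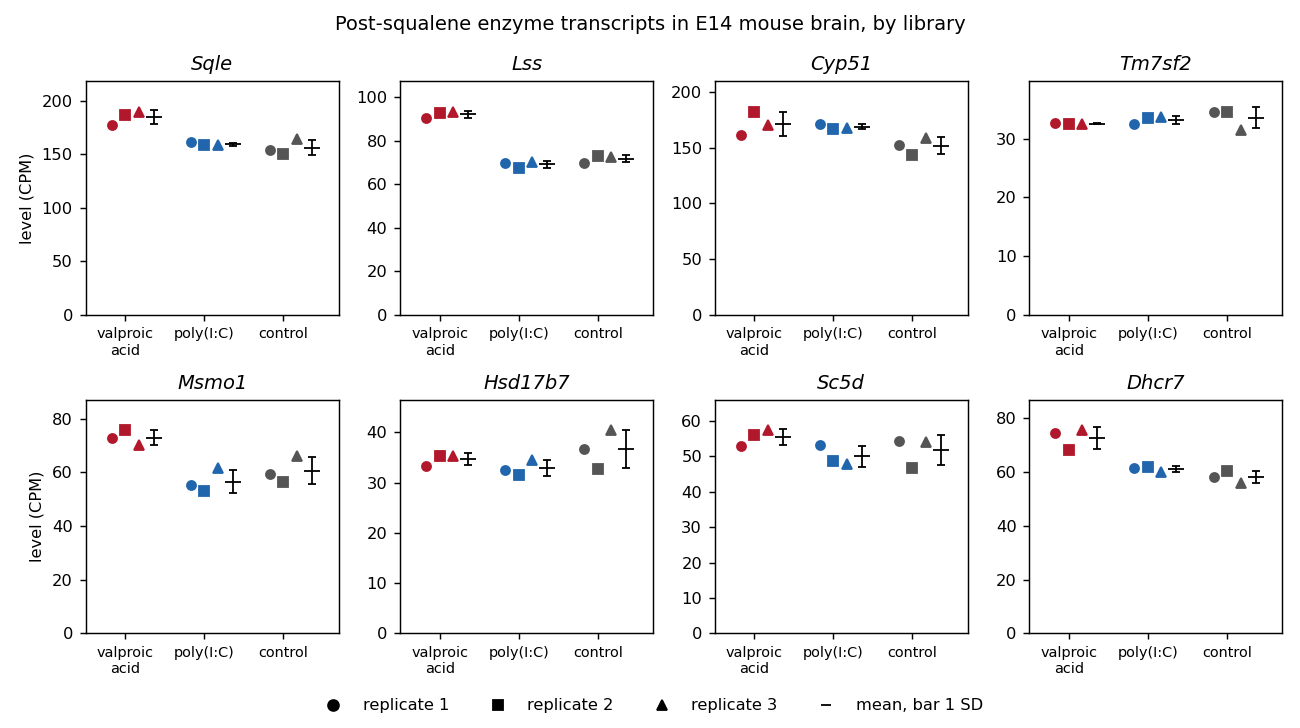
Transcript levels of the 8 enzymes in CPM (vertical axis, from 0) in each library of the valproic acid, poly(I:C) and control groups; symbols mark replicates and the bar gives the mean with 1 SD (n = 3). In Sqle, Lss, Msmo1 and Dhcr7 the valproic acid libraries stand above all others, in Cyp51 both exposed groups stand above control, and in Tm7sf2, Hsd17b7 and Sc5d the groups overlap.

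The same 5 genes were those in which every valproic acid library exceeded every control library, a pattern found in 12.6% of all tested genes. Shares of tested genes with valproic acid above both other groups, or with both exposed groups above control, are not given here. Lss, Dhcr7 and Sqle stayed called when any 1 of the 6 libraries was left out, with a highest edgeR adjusted p of 0.00347, 0.0178 and 0.0235, while Cyp51 and Msmo1 each stayed called in 2 of the 6 such fits. With summed Y-linked expression as a covariate, 2 of the 8 genes were called, Lss (log2 fold change 0.34, adjusted p = 0.0126) and Dhcr7 (0.37, adjusted p = 0.0162). Sqle then had a log2 fold change of 0.21 (adjusted p = 0.0628) and Cyp51 one of 0.14 (adjusted p = 0.253). For Msmo1 it was 0.15 (adjusted p = 0.265), against 0.27 without the covariate. With Xist as the covariate none was called by edgeR, and 19 genes were called in all. Log2 fold changes were then 0.33 for Lss, 0.37 for Dhcr7, 0.25 for Sqle, 0.19 for Cyp51 and 0.08 for Msmo1. Standard errors of these 5 genes were 0.0415 to 0.0669 without a covariate, 0.0523 to 0.0663 with the Y-linked one and 0.0809 to 0.113 with Xist. Within groups, Xist differed widely only through poly(I:C) replicate 3, and Y-linked expression only through replicate 3 of poly(I:C) and of control. The covariate slopes rest on those libraries, and neither fit can separate embryo sex from exposure.

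Poly(I:C) brains showed no called change in any of the 8 enzymes against control brains, by edgeR or by DESeq2. Over all tested genes 0.536% were called in either direction. At an unadjusted p under 0.05 there was 1 of the 8 enzymes, Cyp51, and 2065 of the 17171 tested genes. Cyp51 had a mean of 168.8 ± 2.42 CPM with poly(I:C) and 151.7 ± 7.56 CPM in control (SD, n = 3 each), a fold change of 1.11 (95% interval 1.04 to 1.20, log2 0.15, SE 0.0482, edgeR adjusted p = 0.21). It was the 1 enzyme whose poly(I:C) libraries all exceeded every control library, which was so for 9.61% of all tested genes. The Akap9 mean, over the gene on the other strand, was 304 ± 10.04 CPM with poly(I:C) and 283.7 ± 5.21 CPM in control (SD, n = 3 each, edgeR adjusted p = 0.525).

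For the other enzymes the poly(I:C) intervals bound the change. Sqle had a fold change of 1.02 (95% interval 0.959 to 1.09, edgeR adjusted p = 0.839) and Lss one of 0.963 (95% interval 0.902 to 1.03, edgeR adjusted p = 0.676). Dhcr7 had a fold change of 1.05 (95% interval 0.973 to 1.14, edgeR adjusted p = 0.635). These intervals leave out the fold changes that Sqle, Lss and Dhcr7 had with valproic acid. For Msmo1 the fold change was 0.932 (95% interval 0.844 to 1.03, edgeR adjusted p = 0.601), and for Hsd17b7 it was 0.897 (95% interval 0.803 to 1.002, edgeR adjusted p = 0.427). Tm7sf2 and Sc5d stood at 0.989 and 0.965, with adjusted p-values of 0.945 and 0.815.

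A direct comparison of the 2 exposures separated 4 enzymes. Valproic acid brains had higher Lss (1.33-fold, log2 0.41, SE 0.0442, edgeR adjusted p = 0.000221), Msmo1 (1.29-fold, log2 0.37, SE 0.0672, edgeR adjusted p = 0.0122), Sqle (1.16-fold, log2 0.21, SE 0.0415, edgeR adjusted p = 0.0181) and Dhcr7 (1.19-fold, log2 0.25, SE 0.0528, edgeR adjusted p = 0.0247) than poly(I:C) brains. Of all tested genes 1.42% were called higher here, and in 10.5% every valproic acid library exceeded every poly(I:C) library, as in these 4 enzymes. Cyp51 was not called (1.02-fold, 95% interval 0.945 to 1.09, edgeR adjusted p = 0.877). Sc5d had a fold change of 1.11 (95% interval 1.005 to 1.22) and was not called (edgeR adjusted p = 0.271).

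The comparisons share libraries: valproic acid and poly(I:C) were read against the same controls, and the direct comparison uses the same valproic acid libraries. Lss stayed called against poly(I:C) without any 1 library. Msmo1 lost its call without poly(I:C) replicate 2 (adjusted p = 0.0777), and Sqle without poly(I:C) replicate 2 (0.081) or 3 (0.0644) or valproic acid replicate 3 (0.0602). Dhcr7 stayed called in 1 of the 6 such fits, the one without valproic acid replicate 2, with adjusted p-values up to 0.0888 in the rest. With either sex covariate 1 enzyme, Lss, was called (adjusted p = 0.00753 with Y-linked expression and 0.0342 with Xist).

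**Figure D2:**
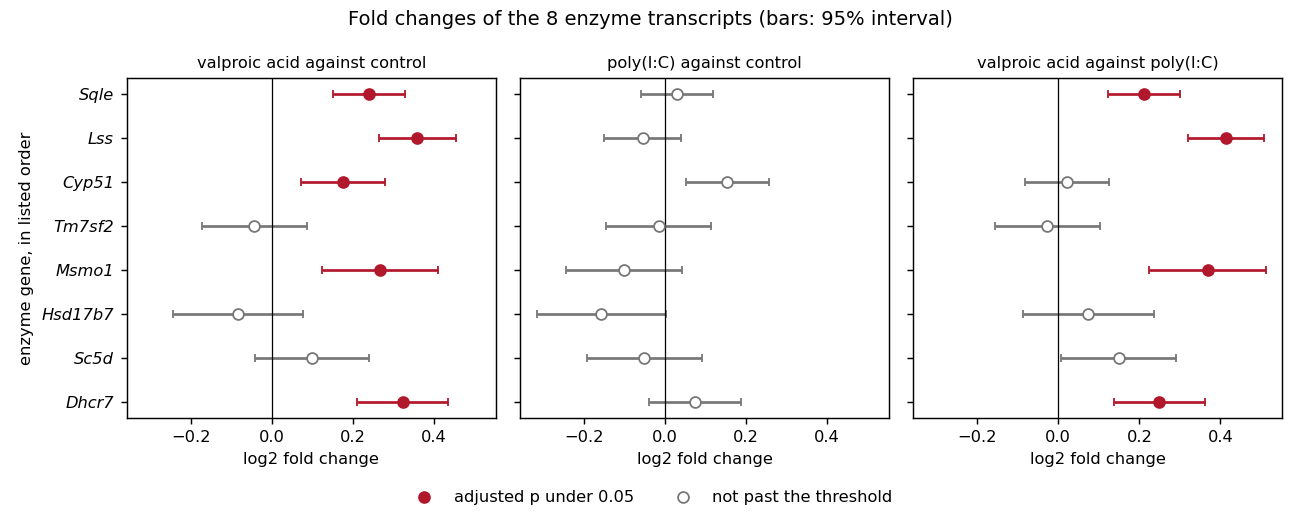
Log2 fold changes of the 8 enzymes (rows) in valproic acid against control, poly(I:C) against control and valproic acid against poly(I:C); points are edgeR estimates from 3 libraries a group, bars 95% intervals, and filled points have an adjusted p under 0.05. Filled points number 5 in the first panel, 0 in the second and 4 in the third, and the Cyp51 interval lies above 0 in both comparisons with control and includes 0 in the direct one.

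Added over the 8 genes, the level was 694.5, 729.2 and 724.6 CPM in the valproic acid libraries, 637.4, 621.3 and 633.9 CPM in the poly(I:C) libraries and 618.9, 598.2 and 643.4 CPM in the control libraries. The valproic acid mean was 716.1 ± 18.8 CPM, the poly(I:C) mean 630.9 ± 8.48 CPM and the control mean 620.2 ± 22.6 CPM (SD, n = 3 each). These sums put valproic acid at 1.16 times and poly(I:C) at 1.02 times the control mean. They lean on Sqle and Cyp51, the genes with the highest CPM.

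**Figure D3:**
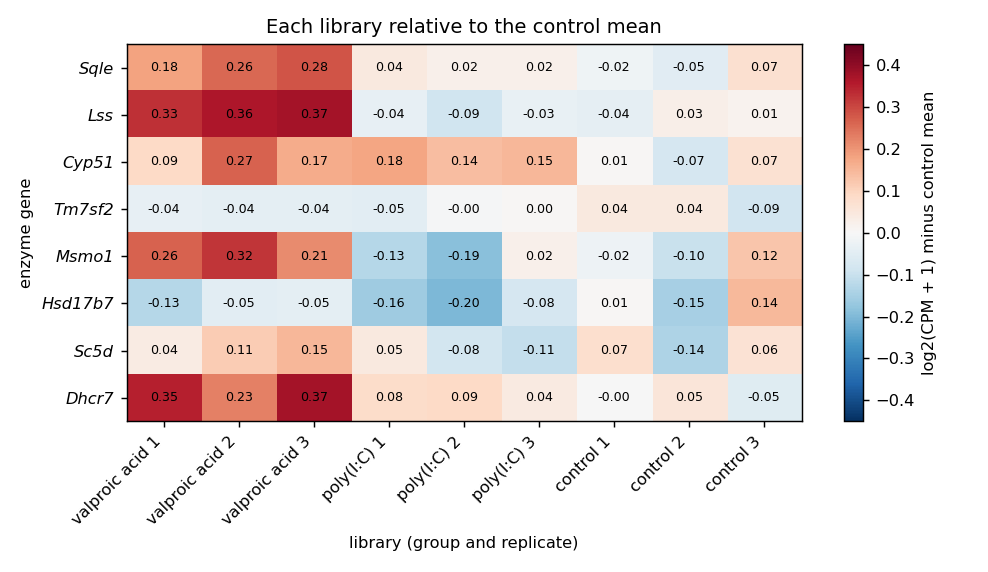
Each library's log2(CPM + 1) minus the control mean for the 8 enzymes (rows), with valproic acid libraries at the left, poly(I:C) libraries in the middle and control libraries at the right. The valproic acid columns reach 0.37 in Lss and Dhcr7 and stay at or below 0 in Tm7sf2 and Hsd17b7, and the Cyp51 row is above 0 in all 6 exposed libraries.

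Levels were compared between genes per kilobase of the principal transcript. Sqle was highest, at 66.9 ± 2.43 CPM per kilobase with valproic acid, 57.7 ± 0.53 with poly(I:C) and 56.6 ± 2.56 in control, followed by Cyp51 at 43.6 ± 2.71 with valproic acid, 42.9 ± 0.61 with poly(I:C) and 38.6 ± 1.92 in control (SD, n = 3 each). Msmo1 came next at 35.7 ± 1.34 CPM per kilobase with valproic acid, 27.7 ± 2.15 with poly(I:C) and 29.6 ± 2.41 in control. Then came Dhcr7 and Tm7sf2, whose order differed between the groups. Dhcr7 was above Tm7sf2 with valproic acid (25.8 ± 1.42 and 22.1 ± 0.061 CPM per kilobase) and below it in control (20.6 ± 0.79 and 22.8 ± 1.21 CPM per kilobase). Lss followed at 19.7 ± 0.34 CPM per kilobase with valproic acid and 15.4 ± 0.38 in control.

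Sc5d stood at 11.6 ± 0.47 CPM per kilobase with valproic acid and 10.8 ± 0.90 in control. Lbr stood at 12.5 ± 0.83 with valproic acid and 11.8 ± 1.58 in control, and the libraries of both genes overlapped in each of these groups. Hsd17b7 was lowest, at 7.51 ± 0.25 CPM per kilobase with valproic acid and 7.95 ± 0.83 in control. The order depends on the length used. Over the union of all annotated exons Cyp51 (34.4 CPM per kilobase in control) was above Sqle (28.1 CPM per kilobase in control). By that length Dhcr7 was above Tm7sf2 in control too (9.986 and 7.625 CPM per kilobase). Lss was then below Hsd17b7 in control (6.651 and 7.179 CPM per kilobase). Which transcripts these brains use was not tested.

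Proximal promoters of sterol genes are known to bind SREBP2 together with the factors NF-Y, at the CCAAT box, and Sp1, at the GC box. RefSeq promoters of build GRCm38.p6 were available for 7 of the 8 genes, Lss, Cyp51, Tm7sf2, Msmo1, Hsd17b7, Sc5d and Dhcr7, the last with 3 start sites. Each of the 7 had at least 1 start site whose preceding 250 bases hold both a CCAAT box (CCAAT, either strand) and a GC box (GGGCGG, either strand). Of all 32851 listed promoters, 33.8% held the CCAAT box, 32.7% the GC box and 11% both. Among the 15147 promoters of tested genes the shares were 34.7%, 55.6% and 19.2%. These shares count promoters, while the 7 counts genes with any such start site. Of the 3 Dhcr7 start sites, only number 3 held both boxes. A strict sterol regulatory element (TCACNCCAC, either strand) was in none of the 7 genes' windows and in 1.05% of all promoters. These matches are letters in a window, not measured binding, and called and uncalled enzymes alike held both boxes.

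The 250 bases before the start are shown for the enzyme with the largest fold change (Lss), for 1 that was not called (Sc5d) and for the first start site of Dhcr7, which was called but has 1 GC box and no CCAAT box in that window. They read 5′ to 3′ along the gene's strand, and capitals mark CCAAT and GC boxes on either strand. The windows are chr10:76531355-76531604 (plus strand) for Lss, chr9:42264301-42264550 (minus strand) for Sc5d and chr7:143822917-143823166 (plus strand) for Dhcr7.
Lss: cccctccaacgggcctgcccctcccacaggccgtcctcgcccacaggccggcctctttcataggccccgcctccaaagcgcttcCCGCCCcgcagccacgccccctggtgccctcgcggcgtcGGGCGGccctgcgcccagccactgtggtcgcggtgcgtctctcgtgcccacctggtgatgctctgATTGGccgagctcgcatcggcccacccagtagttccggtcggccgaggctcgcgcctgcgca
Sc5d: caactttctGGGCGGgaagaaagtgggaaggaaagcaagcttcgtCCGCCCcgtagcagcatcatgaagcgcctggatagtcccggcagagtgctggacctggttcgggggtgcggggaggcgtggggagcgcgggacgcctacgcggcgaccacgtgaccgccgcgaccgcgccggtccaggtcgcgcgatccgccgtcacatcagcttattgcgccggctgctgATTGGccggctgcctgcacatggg
Dhcr7: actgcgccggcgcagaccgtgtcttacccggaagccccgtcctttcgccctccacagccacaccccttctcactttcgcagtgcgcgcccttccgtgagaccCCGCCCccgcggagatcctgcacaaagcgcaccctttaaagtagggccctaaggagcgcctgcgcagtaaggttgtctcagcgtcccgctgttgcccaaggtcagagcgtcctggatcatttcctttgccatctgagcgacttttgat
In Lss the CCAAT box, on the minus strand, lies 62 to 58 bases before the start and the GC boxes 166 to 161 and 127 to 122 bases before it. In Sc5d the CCAAT box lies nearer, 24 to 20 bases before the start. Both CCAAT boxes of Dhcr7 precede its start site number 3.

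Further genes of the pathway were read in the same fit, from lists chosen by function that do not hold every gene of the pathway. Of 8 mevalonate branch genes, 5 rose with valproic acid and none fell, with a median log2 fold change of 0.31. They were Acat2 (1.21-fold), Hmgcs1 (1.25-fold), Mvd (1.42-fold), Idi1 (1.28-fold) and Fdft1 (1.23-fold), which makes squalene, with edgeR adjusted p-values of 0.000246 to 0.0116. Mvk, Pmvk and Fdps were not called (adjusted p = 0.231, 0.891 and 0.265), and Fdps had only 4.90 ± 0.78 CPM with valproic acid and 3.80 ± 0.40 CPM in control (SD, n = 3 each). Of 4 further genes that act after squalene, Nsdhl rose, while Lbr, Ebp (1.11-fold, adjusted p = 0.465) and Erg28 (1.03-fold, adjusted p = 0.769) were not called.

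Against poly(I:C), 4 mevalonate branch genes were higher with valproic acid, from Fdft1 at 1.17-fold to Idi1 at 1.52-fold, and Acat2 was not called (1.12-fold, edgeR adjusted p = 0.0979). Nsdhl was also higher (1.31-fold, edgeR adjusted p = 0.00986). For poly(I:C) against control, edgeR called no gene of the mevalonate branch, the further genes after squalene, or the SREBP regulator, uptake and efflux lists. At an unadjusted p under 0.05 there were 6 of these 32 genes, and 2065 of the 17171 tested genes.

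**Figure D4:**
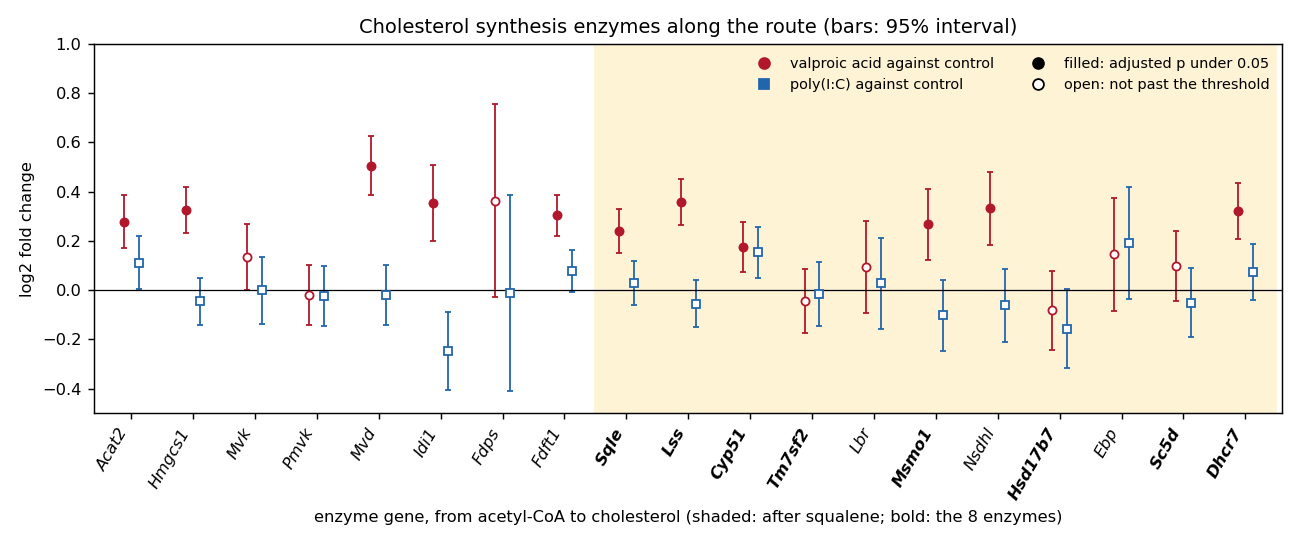
Log2 fold changes (vertical axis, bars 95% intervals) of cholesterol synthesis genes in pathway order from left to right, for valproic acid against control (circles) and poly(I:C) against control (squares), 3 libraries a group; the shaded area holds the genes after squalene, the 8 enzymes are in bold and filled symbols have an adjusted p under 0.05. Filled circles run along both branches, from Acat2 to Dhcr7, with gaps at Mvk, Pmvk, Fdps, Tm7sf2, Lbr, Hsd17b7, Ebp and Sc5d, and no square is filled.

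Among 7 regulators of SREBP processing 2 rose with valproic acid. Srebf2, which encodes SREBP2, averaged 384.0 ± 5.37 CPM with valproic acid and 342.2 ± 3.94 CPM in control (SD, n = 3 each, 1.12-fold, edgeR adjusted p = 0.0118). Insig1, which holds SREBP in the endoplasmic reticulum and is itself an SREBP target, averaged 82.6 ± 8.76 CPM with valproic acid and 66.3 ± 2.19 CPM in control (1.25-fold, edgeR adjusted p = 0.0338). None of 4 sterol uptake and transport genes was called by edgeR, and 3 had an unadjusted p under 0.05, as did 3803 of the 17171 tested genes. Of these 4, the smallest adjusted p-values were those of Tmem97 (1.23-fold, edgeR adjusted p = 0.146) and Vldlr (1.09-fold, edgeR adjusted p = 0.191).

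The 9 genes of the liver X receptor (LXR) and sterol efflux list moved both ways, with a median log2 fold change of -0.21. Apoe, the main apolipoprotein of brain, fell to 133.0 ± 6.94 CPM with valproic acid, against 153.7 ± 7.12 CPM in control (SD, n = 3 each, log2 -0.21, edgeR adjusted p = 0.0268). The transporter Abcg4 fell to 25.9 ± 2.43 CPM with valproic acid, against 31.3 ± 0.86 CPM in control (log2 -0.28, edgeR adjusted p = 0.0428). Nr1h2, which encodes an LXR, was higher with valproic acid (1.16-fold, edgeR adjusted p = 0.0343), as was Cyp46a1, the neuronal enzyme that hydroxylates cholesterol for export (1.47-fold, edgeR adjusted p = 0.018). Apoe was at 132.2 ± 6.42 CPM with poly(I:C), a log2 fold change from control of -0.22 (edgeR adjusted p = 0.0778). With poly(I:C), Cyp46a1 was 1.34-fold control (edgeR adjusted p = 0.19), Nr1h2 1.07-fold (0.564) and Abcg4 1.01-fold (0.944). None of the 9 genes was called between valproic acid and poly(I:C). Of all tested genes 2.78% were called lower in valproic acid against control.

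Cell type markers were read in the same fit, and their lists differed in direction between valproic acid and control. Markers of neural progenitors and neurons were abundant, and those of tissue outside the brain were near 0. Alb was at 0 in 5 libraries, and the 4 genes Alb, Afp, Krt5 and Myh3 summed to 0.467 to 1.16 CPM with valproic acid, 0.529 to 1.30 CPM with poly(I:C) and 0.298 to 0.472 CPM in control. Intermediate progenitor markers summed to 598 to 643.8 CPM with valproic acid, 502.1 to 539 CPM with poly(I:C) and 469 to 501 CPM in control, and 3 of 4 (Eomes, Neurog2 and Btg2) were called higher with valproic acid than in control. Neural progenitor markers summed to 1832 to 1917 CPM with valproic acid, 1737 to 1805 CPM with poly(I:C) and 1695 to 1736 CPM in control, with Pax6 and Vim of 6 called higher with valproic acid. Neuron markers summed to 5050 to 5391 CPM with valproic acid, 5404 to 5629 CPM with poly(I:C) and 5443 to 5540 CPM in control, with Map2 and Stmn2 of 6 called lower.

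Red cell genes summed to 2071 to 2379 CPM with valproic acid, 1251 to 1836 CPM with poly(I:C) and 1610 to 1867 CPM in control, and 3 of 6 (Hbb-y, Hba-x and Hbb-bh1) were called higher with valproic acid than in control. Microglia markers summed to 52.3 to 59.6 CPM with valproic acid, 59.1 to 64.3 CPM with poly(I:C) and 65.6 to 72.8 CPM in control, with Csf1r and P2ry12 of 5 called lower with valproic acid. Endothelial markers summed to 262.7 to 286.5 CPM with valproic acid, 242.5 to 261.8 CPM with poly(I:C) and 253.5 to 263.2 CPM in control, with Pecam1 of 5 called higher. In the mural cell and fibroblast list the sums were 485.1 to 592.3 CPM with valproic acid, 432.2 to 461.4 CPM with poly(I:C) and 494.1 to 539 CPM in control, with Rgs5 of 5 called lower. The other 4 genes of that list had positive log2 fold changes against control and were not called, and the list median was 0.14. No gene of the oligodendrocyte precursor list (95.2 to 112.4 CPM with valproic acid, 106.8 to 110 CPM with poly(I:C) and 101.7 to 111.4 CPM in control) or of the choroid plexus list (551 to 617.8 CPM with valproic acid, 539.7 to 612.8 CPM with poly(I:C) and 511.8 to 658.2 CPM in control) was called between valproic acid and control. The part of cell makeup in the enzyme values was not tested.

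Genes whose pattern over the 9 libraries lay closest to the mean pattern of the 8 enzymes were looked up among the 10560 other genes averaging 10 CPM or more, by the root mean square difference of log2(CPM + 1) from the control mean. The closest was Mcm6 (0.0227), a subunit of the replicative helicase, at 120.5 ± 1.23 CPM with valproic acid, 108.9 ± 1.28 CPM with poly(I:C) and 108.3 ± 1.82 CPM in control (SD, n = 3 each). Jam2 (0.0261), a junctional adhesion protein, Utp14a (0.0305), a ribosome assembly factor, Rps6 (0.0307), a ribosomal protein, and Prpf31 (0.0323), a splicing factor, followed. The enzymes themselves lay farther from their own mean, from 0.0529 for Sqle to 0.168 for Hsd17b7. The 5 genes were picked for closeness and the enzymes were not, so nothing is read from this difference. In valproic acid against control edgeR called Mcm6, Rps6 and Prpf31 higher (adjusted p = 0.029, 0.0067 and 0.0304). Jam2 and Utp14a were not called (adjusted p = 0.0978 and 0.117). The 5 genes were picked from these same libraries for a pattern higher with valproic acid, so these calls are no independent result.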

How the data were processed

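The authors deposited raw read counts per Ensembl gene for 9 libraries, used as deposited. Per the submitters' processing notes the aligner was HISAT2 and the build GRCm39 (mm39). Which counter, strand setting and annotation release were used is not given in the sources used here. How reads in stretches shared by overlapping genes were assigned is therefore not known. Symbols, chromosomes, transcript lengths and the overlaps between genes came from GENCODE M21, on an earlier build than the counts, and 4623 genes had no symbol. Promoters came from RefSeq (GRCm38.p6).

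Genes were kept by filterByExpr (min.count 10, min.total.count 15). All 9 libraries were fitted with a mean per group by edgeR 4.0.16 (R 4.3.3), with TMM factors of 0.978 to 1.02 and a quasi-likelihood F-test, adjusted by Benjamini-Hochberg over all tested genes (threshold 0.05). Standard errors and 95% intervals come from that fit. The method was tested on simulated data. Pairs within a group had chi-square values of 3.73 to 6.01 for each degree of freedom, so no library was a copy. DESeq2 1.42.0 was an alternative. Other alternatives were its size factors in edgeR, other filters on low counts, fits of just the 6 libraries at issue, a replicate block, sex covariates (Y-linked expression or Xist), scaling that ignores mitochondrial, ribosomal RNA and globin genes, and dropping each library in turn.

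The members and lists were chosen with earlier results of these data known, and some genes of the pathway are not reported here. Named were all 8 members, each pathway list gene called in valproic acid against control, Lbr, and the 5 genes most like the members. Genes that overlap a member, marker genes, Xist, and pathway genes that were not called are given beyond that rule, chosen after their values were seen.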

Additional observations from a re-analysis of the deposited data

How the results depend on the processing

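The number of enzymes called in valproic acid against control was 5 with DESeq2 size factors, with no filter on low counts, with at least 1 CPM in 3 libraries, with the DESeq2 Wald test and without mitochondrial, globin and ribosomal RNA genes. It was 4 with only the 6 libraries compared or with the replicate block, which each lost Cyp51 (adjusted p = 0.0933 and 0.0695). It was 2 with the Y-linked covariate, 0 with Xist and 3 to 5 without each library in turn. Against poly(I:C) it was 4, with the replicate block too, and 1 with either sex covariate and 1 to 4 without each library. In poly(I:C) against control it was 0 in every setting run. Replicate numbers did not pair the libraries: deviations of same-numbered libraries correlated at -0.0416 to 0.131, and 3 of 9 libraries correlated best with their own number.

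No log2 fold change of an enzyme in valproic acid against control changed sign. Values near 0 did elsewhere. Tm7sf2 in poly(I:C) against control ranged from -0.060 to 0.0069 without each library, and Cyp51 in valproic acid against poly(I:C) from -0.026 to 0.065. With the Y-linked covariate Cyp51 was at -0.0102, Tm7sf2 at 0.0081 and Hsd17b7 at -0.036 in that comparison. The cause was not tested.

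Over all genes, calls in valproic acid against control numbered 1090, against 1661 without the filter, 272 with the Y-linked covariate, 19 with Xist and 467 to 789 without each library. For poly(I:C) against control they numbered 92, against 464 without the filter, 166 by DESeq2, 42 with Xist and 38 to 63 without each library. For valproic acid against poly(I:C) they numbered 445, against 1057 without the filter, 111 with the Y-linked covariate, 39 with Xist and 113 to 294 without each library. With 3 libraries a group, the smallest change called among the 8 enzymes was 1.13-fold.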

Other observations

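Control replicate 3 had neither Xist (0.0497 CPM) nor Y-linked counts, a pattern that no other library showed. Without it, the same number of enzymes, 5, was called in valproic acid against control.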
